A study of Mus musculus with 6 samples.

Results

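Fos, Fosb, Fosl1, Fosl2, Jun, Junb, Jund, Egr1, Atf3 and Ier2 are transcription factor and regulator genes of the immediate early response. These 10 genes were taken by symbol from the 23159 genes of the count table, and all 10 passed the filter on low counts together with the rest of the 13728 genes tested. RNA-seq was performed on chondrocytes of the mouse growth plate in 3 independent experiments, each with 1 library of label-retaining chondrocytes (LRCs) and 1 library of non-LRCs, 6 libraries in all. The comparison addressed how slow-cycling chondrocytes, which keep a nuclear label, differ in expression from chondrocytes that have diluted it.

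Both groups came from the same mice, termed Col2-Q. They were homozygous for Col2a1-tTA in the Peli2 locus, TRE-H2B-GFP in the Col1a1 locus, Col2a1-creER and the R26R-tdTomato reporter. All mice received doxycycline from P21 to P49, which shut off the H2B-GFP label, and tamoxifen at P46 and P47, which switched on tdTomato through creER, and all were analyzed at P49. LRCs were sorted as H2B-GFP(high) tdTomato+ cells and non-LRCs as H2B-GFP(mid-low) tdTomato+ cells, so by the labels the groups shared all alleles and treatments and differed in the GFP gate. The tTA that switches on the label and the creER were both driven by Col2a1 sequences, but the study's text describes weak H2B-GFP in bone cells without tTA, and its sorting methods name the CD45 and GFP gates and not tdTomato. Bones of several littermates were pooled in each experiment, cells were released with collagenase, and CD45+ cells were gated out. About 10000 LRCs and 50000 non-LRCs are listed per sample, so the number of cells also differed between the groups. The study's methods give the input to cDNA as a range of total RNA and not as cells. Each experiment is therefore 1 pool of animals, and the p-values refer to the spread between 3 pools.

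Immediate early genes are transcribed within minutes of a stimulus from factors already in the cell, such as serum response factor, ternary complex factors and CREB, which are activated by MAP kinases. Fos and Jun family proteins pair through leucine zippers to form AP-1, which binds the sequence TGANTCA, where N is any base, and Egr1 is a zinc finger factor that binds GC-rich sites. In cartilage, AP-1 factors are known to act in chondrocyte proliferation and hypertrophy and in the control of matrix metalloproteinase genes, and immediate early genes are also known to respond to warm enzymatic dissociation of tissue.

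Total counts lay between 18943789 (LRC of experiment 2) and 129559872 (LRC of experiment 1), and the LRC library of experiment 2 had the fewest detected genes, 12401 against 14318 to 16919 in the others. The smallest count of any of the 10 genes in a library was 1192, for Fosl2 in that LRC library. The cDNA was amplified before sequencing, so counts are not numbers of RNA molecules. The error from sampling few molecules was not measured. The chondrocyte markers were abundant in every library. Levels are given in CPM, which are counts scaled to the library total. Over 16 measured markers the sum was 100414 to 249699 CPM in LRCs and 159305 to 268273 CPM in non-LRCs, with Col2a1 as the largest term. By fitted change, 4 of these markers stood higher and 12 lower in LRCs, and the middle value of the 16 was -0.45 on the log2 scale. Within experiments, 11 were lower in LRCs in all 3 pairs and 1 was higher in all 3. At an unadjusted p below 0.05 by edgeR the count was 7 lower and 0 higher, and none had an adjusted p below 0.05. The 5 resting zone markers summed to 1761 to 2058 CPM in LRCs and 361 to 505 CPM in non-LRCs, and 4 of them were DEGs, the term used for genes whose adjusted p was below 0.05 at a change of 2-fold or more. A list of genes of superficial and synovial fibroblast-like cells, which need not be specific to them, also stood apart. It summed to 3710 to 5065 CPM in LRCs and 1575 to 2555 CPM in non-LRCs. By fitted change all 12 tested genes were higher in LRCs, and 2 of them were DEGs (Prg4 and Cilp). The study's text describes Prg4 mRNA in the resting zone too, far fainter than on the articular surface, and takes it as an LRC marker. It also reports that nearly all tdTomato+ cells released by the digestion were growth plate chondrocytes. Markers of blood cells and vessels summed to 6.07 to 10.3 CPM in LRCs and 5.04 to 5.84 CPM in non-LRCs. The endothelial markers Cdh5, Kdr and Emcn had 0 counts in all 6 libraries. Pecam1, also an endothelial marker, had 43, 12 and 0 counts in LRCs and 8, 26 and 12 in non-LRCs of experiments 1, 2 and 3. Markers of bone cells summed to 1515 to 3256 CPM in LRCs and 1341 to 2237 CPM in non-LRCs, with Col1a2 as the largest term. Of 10 tested bone markers 4 were higher and 6 lower in LRCs, and 1 was a DEG, Col1a1, which was higher in LRCs (log2 fold change 2.38 ± 0.18 SE, adjusted p = 0.0151 by edgeR). By DESeq2 3 bone markers, Acp5, Bglap and Bglap2, were lower. Markers of skeletal muscle summed to 12.2 to 24.1 CPM and 23 to 43.2 CPM. The part of these other cells in the values given here was not tested. In such bulk libraries a smaller number of expressing cells and less RNA per cell cannot be told apart.

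None of the 10 genes was a DEG between LRCs and non-LRCs by the edgeR quasi-likelihood test with the experiment as a block and Benjamini-Hochberg adjustment over all genes tested, by which 1.21% of all genes were DEGs. No member reached an adjusted p of 0.05 at any fold change, against 1.28% of all genes. At an unadjusted p below 0.05 the count was 4 of 10 genes (Fos, Junb, Jund and Egr1), all higher in LRCs, where 18.4% of all genes passed in either direction and 8.89% were higher. By DESeq2 with the same block, the tool of the study's own paired analysis, 2 of the 10 genes, Fos and Jund, were DEGs. Of all genes, 5.81% were DEGs by DESeq2 (3.11% higher in LRCs). By the edgeR likelihood ratio test the same 2 genes were called, against 4.47%. By limma-voom none of the 10 genes was a DEG, against 4.52%, as Fos and Jund had an adjusted p of 0.0234 and 0.0147 at log2 fold changes of 0.99 and 0.98, under the fold threshold. In no member did the 3 LRC levels lie wholly apart from the 3 non-LRC levels, which 18.7% of all genes showed (8.41% with LRCs above). Within experiments, 4 genes were higher in LRCs in all 3 pairs (Fos, Junb, Jund and Egr1), where 20.4% of all genes were, and Jun was lower in all 3, where 26.1% of all genes were. The other 5 genes had both signs among the experiments, and 46.5% of all genes had 1 sign in all 3.

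**Figure D1:**
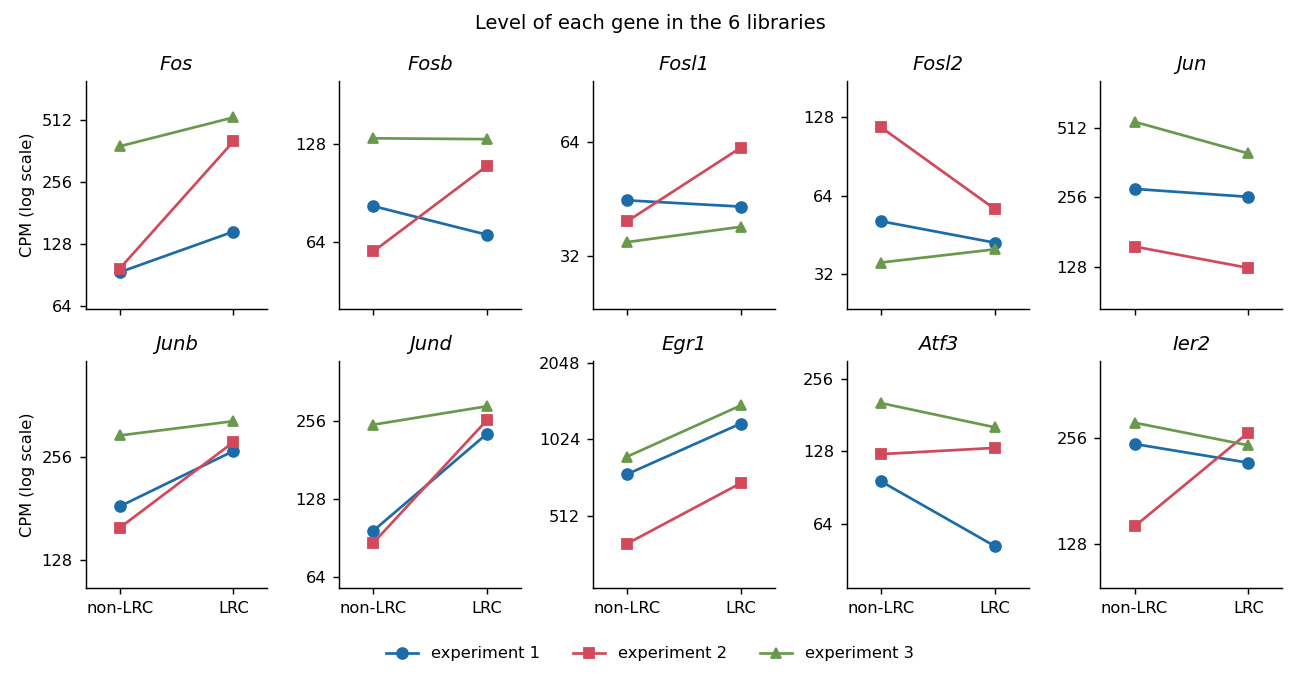
Normalized level of each of the 10 genes in the 6 libraries, in CPM on a log2-spaced axis, with a line joining the non-LRC and LRC libraries of 1 experiment. Lines of Egr1 climb alike in the 3 experiments, those of Fos, Junb and Jund climb at different slopes, and those of Jun descend slightly from 3 distinct starting levels.

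The 4 Fos family genes encode proteins that need a partner, usually a Jun protein, to bind DNA. Fos, the founding member, is on GRCm38 chr12:85473890-85477273 (plus strand). In the order of experiments 1, 2 and 3, used for all values below, Fos was measured at 147, 402 and 525 CPM in LRCs and at 93.6, 97.4 and 380 CPM in non-LRCs. The non-LRC library of experiment 3 exceeded the LRC library of experiment 1, so the groups overlapped, although LRCs were higher within every experiment. The means were 358 ± 193 CPM (SD, n = 3) in LRCs against 191 ± 165 CPM (SD, n = 3) in non-LRCs. Over the 3 experiments the fitted log2 fold change of Fos was 1.04 ± 0.32 (SE), a 2.06-fold higher level in LRCs, with an adjusted p of 0.175 by the edgeR quasi-likelihood test. The log2 difference was 0.65, 2.04 and 0.46 in experiments 1, 2 and 3, so experiment 2, with the shallow LRC library, had by far the widest gap. Without experiment 2 the fitted log2 fold change of Fos was 0.56 (adjusted p = 0.0828), and without experiment 3 it was 1.37 (adjusted p = 0.0439). Over 12 alternative settings the adjusted p of Fos lay between 0.00945 and 0.702.

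Fosb, known for a stable truncated protein form, is on chr7:19302696-19310051 (minus strand). Its levels were 67.2, 110 and 132 CPM in LRCs and 82.3, 59.7 and 133 CPM in non-LRCs. The levels in experiment 3 were nearly equal, while the other experiments went in opposite directions, with log2 differences of -0.29 and 0.87. Fosb had a fitted log2 fold change of 0.19 ± 0.25 (SE), with an adjusted p of 0.733, and the value moved to -0.15 without experiment 2, 0.43 without experiment 1 and 0.31 without experiment 3.

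Fosl1 and Fosl2 encode Fra-1 and Fra-2, which lack the strong transactivation domain of Fos. Fosl1, on chr19:5447547-5455946 (plus strand), was measured at 43.2, 61.9 and 38.2 CPM in LRCs and at 44.9, 39.5 and 34.8 CPM in non-LRCs. Fosl2, on chr5:32135801-32157842 (plus strand), was measured at 42.3, 57.0 and 39.9 CPM in LRCs and at 51.1, 117 and 35.5 CPM in non-LRCs. The non-LRC library of experiment 2 had the highest Fosl2 level of all 6 libraries and the lowest levels of Fosb, Junb, Jund, Egr1 and Ier2. The log2 fold change was 0.24 ± 0.20 (SE) for Fosl1 and -0.38 ± 0.26 (SE) for Fosl2, with adjusted p of 0.584 and 0.486. Without experiment 2 these were 0.04 and -0.05, without experiment 1 Fosl1 was at 0.39, and without experiment 3 Fosl2 was at -0.63. In experiment 2 alone the log2 difference was 0.65 for Fosl1 and -1.04 for Fosl2, so the pair lay on opposite sides there. Summed over the 4 Fos family genes, the level was 299.9, 630.0 and 735 CPM in LRCs and 272, 314 and 584 CPM in non-LRCs.

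The 3 Jun family genes encode the partners of Fos proteins and can also pair with each other. Jun, the strongest activator of the family, has a single exon on chr4:95049034-95052222 (minus strand). Its levels were 258, 127 and 397 CPM in LRCs and 279, 157 and 543 CPM in non-LRCs. LRCs were lower in every experiment, by log2 differences of -0.11, -0.31 and -0.45. Means were 260.5 ± 135 CPM in LRCs against 326 ± 197 CPM in non-LRCs (SD, n = 3 each). The difference did not pass the test, at a fitted log2 fold change of -0.29 ± 0.14 (SE) and an adjusted p of 0.346. Without experiment 3 the log2 fold change of Jun was -0.19.

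Junb, which encodes a weaker activator that can oppose Jun, is on chr8:84974484-84978718 (minus strand). Junb was measured at 266, 282 and 325 CPM in LRCs and at 183, 159 and 295 CPM in non-LRCs. Only the non-LRC library of experiment 3 reached into the range of the LRC libraries. Junb had a fitted log2 fold change of 0.50 ± 0.18 (SE), with an adjusted p of 0.212.

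Jund, the family member that is usually expressed steadily rather than induced, has a single exon on chr8:70698949-70700616 (plus strand). It was measured at 229, 259 and 292 CPM in LRCs and at 96.5, 86.6 and 248 CPM in non-LRCs. The LRC libraries lay close together, while the non-LRC library of experiment 3 stood far above the other non-LRC libraries and inside the LRC range. Means were 260.1 ± 31.7 CPM in LRCs against 144 ± 90.5 CPM in non-LRCs (SD, n = 3 each). For Jund the fitted log2 fold change was 1.02 ± 0.27 (SE), with an adjusted p of 0.131. The log2 difference was 1.25 and 1.58 in experiments 1 and 2 and 0.24 in experiment 3. Without experiment 3, the log2 fold change of Jund was 1.43 (adjusted p = 0.00887), and 1.59% of all genes were DEGs in that fit. Without experiment 2 it was 0.74 (adjusted p = 0.130), and over 12 alternative settings the adjusted p lay between 0.00351 and 0.558.

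The Jun family sum was 752, 668 and 1014 CPM in LRCs and 559, 403 and 1086 CPM in non-LRCs, higher in LRCs in experiments 1 and 2 and lower in experiment 3, where the lower level of Jun outweighed the higher levels of Junb and Jund.

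Egr1, a zinc finger factor that is induced through serum response factor, had the highest level of the 10 genes and stood at the percentile of 99.2 among all genes tested by mean log2 CPM. Egr1 was measured at 1181, 688 and 1392 CPM in LRCs and at 746, 397 and 874 CPM in non-LRCs. The library with the lowest level in either group was that of experiment 2, and the LRC level there was below both other non-LRC levels. Within experiments the gap was nearly constant, with log2 differences of 0.66, 0.79 and 0.67. Means were 1087 ± 361 CPM in LRCs against 672 ± 247 CPM in non-LRCs (SD, n = 3 each). The fitted log2 fold change was 0.71 ± 0.14 (SE), a 1.63-fold higher level in LRCs, with an unadjusted p of 0.00199 and an adjusted p of 0.0731 by the edgeR quasi-likelihood test. Its adjusted p was 0.0316 with only genes of at least 10 counts in every library tested, 0.00611 by limma-voom, 0.000839 by the likelihood ratio test and 1.54e-05 by DESeq2, all at a change below 2-fold. In these tests 6.75%, 9.91%, 9.4% and 12.3% of all genes had an adjusted p below 0.05. Without experiment 2 the adjusted p of Egr1 was 0.0496, against 5.37% of all genes below 0.05, without experiment 1 or 3 it was 0.266 or 0.173, and over 12 alternative settings it lay between 1.54e-05 and 0.603.

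Atf3, a stress-inducible bZIP factor that can repress or activate with Jun partners, is on chr1:191170296-191218039 (minus strand). It was measured at 51.7, 132 and 161 CPM in LRCs and at 96.0, 125 and 203 CPM in non-LRCs. The level was lower in LRCs in experiments 1 and 3 and nearly equal in experiment 2. Atf3 had a fitted log2 fold change of -0.38 ± 0.21 (SE), with an adjusted p of 0.403. Without experiment 1 it was -0.13, and without experiment 2 it was -0.61 (adjusted p = 0.103).

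Ier2, a small nuclear regulator outside the AP-1 and Egr families, has a single exon on chr8:84661331-84662852 (minus strand). The levels were 218, 266 and 245 CPM in LRCs and 247, 144 and 283 CPM in non-LRCs. Experiment 2 again stood apart, with a log2 difference of 0.89 against -0.18 and -0.21 in the others. Ier2 had a fitted log2 fold change of 0.16 ± 0.25 (SE), with an adjusted p of 0.770, and the direction turned to a log2 fold change of -0.19 without experiment 2. The value was 0.33 without experiment 1 and 0.37 without experiment 3.

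**Figure D2:**
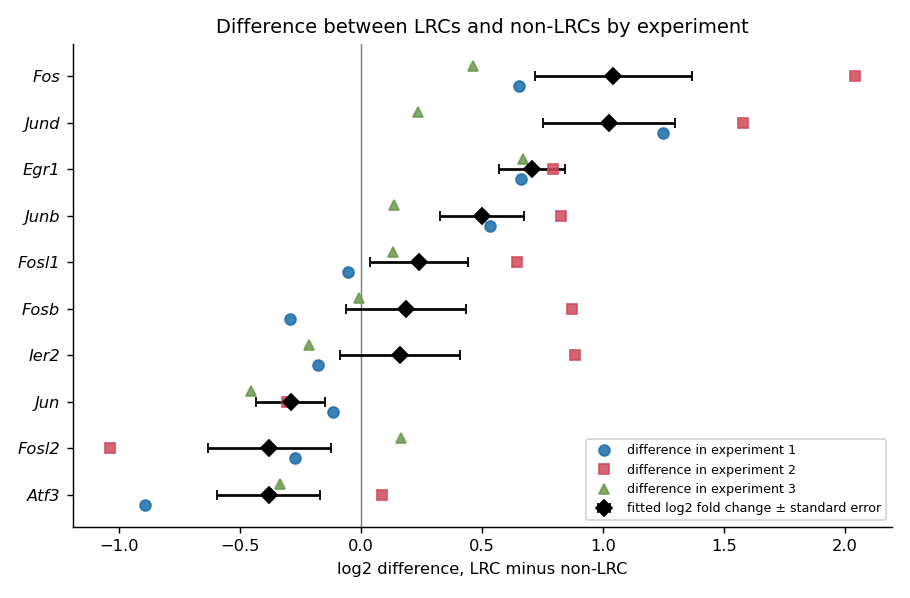
Log2 difference between the LRC and non-LRC library of each experiment (circle, square and triangle for experiments 1, 2 and 3) and the fitted log2 fold change with its standard error (black diamond and bar) for the 10 genes. The square of experiment 2 lies farthest to the right for 8 of the 10 genes, all but Jun and Fosl2, and the 3 symbols of Egr1 lie closest together.

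The median log2 fold change of the 10 genes was 0.21, and that of all genes was -0.10. By experiment, the members' median log2 difference was -0.08, 0.81 and 0.14, with 4, 8 and 6 of the 10 genes higher in LRCs, while the median of all genes was -0.01, -0.16 and -0.01. The widest median gap was that of experiment 2, whose LRC library was the shallowest. With all libraries thinned to the smallest total, 7 of the 10 genes were higher and 3 lower in LRCs, as with all counts. In that fit the log2 fold change was 1.04 for Fos, 1.04 for Jund, 0.71 for Egr1 and 0.16 for Ier2. The gap within experiment 2 was not computed on thinned libraries, and the part of the fewer detected genes in it was not tested. Summed over the 10 genes, the level was 2503, 2384 and 3546 CPM in LRCs and 1919, 1382 and 3031 CPM in non-LRCs. These genes took 0.226%, 0.263% and 0.354% of all counts in LRCs and 0.180%, 0.141% and 0.318% in non-LRCs.

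The 10 genes also varied between experiments. By the quasi-likelihood F test of the experiment in the same fit, 5 of the 10 genes had an unadjusted p below 0.05 (Fos, Fosl2, Jun, Egr1 and Atf3), against 22.2% of all genes, and none passed after adjustment, as 0% of all genes did. With only genes of at least 10 counts in every library tested, 4 of the 10 genes (Fos, Jun, Egr1 and Atf3) had an adjusted p below 0.05, against 8.37% of all genes. Experiment 3 had the highest mean level of 8 of the 10 genes, and experiment 2 that of Fosl1 and Fosl2. The mean log2 CPM of Fos was 1.93 higher in experiment 3 than in experiment 1. That of Jun was 1.72 higher in experiment 3 than in experiment 2, with an unadjusted p of 0.000214 and an adjusted p of 0.0962 by the F test. For Jun this range was wider than any of its differences between LRCs and non-LRCs within an experiment. Atf3 ranged over 1.36, Fosl2 over 1.11 and Egr1 over 1.08 on the log2 scale between experiments, and Ier2 over 0.43. The median range was 0.97 for the 10 genes and 0.86 for all genes.

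Fos and Jun are often named together as AP-1, yet Fos was higher and Jun lower in LRCs in every experiment here. Neither difference passed the edgeR quasi-likelihood test after adjustment. The proximal promoters of both genes are shown as a description, and a link between these sequences and the levels was not tested. The 120 bases before the annotated start are given from RefSeq on GRCm38.p6, with matches to TGACGT, the core of the cAMP response element, and TATAAA in capitals for Fos (chr12:85473770-85473889, plus strand), and the match to TGACATCA, a variant AP-1 element that is known from the Jun promoter, in capitals for Jun (chr4:95052223-95052342, minus strand).
Fos: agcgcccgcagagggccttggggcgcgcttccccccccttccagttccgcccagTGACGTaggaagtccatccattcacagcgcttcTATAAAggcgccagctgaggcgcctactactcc
Jun: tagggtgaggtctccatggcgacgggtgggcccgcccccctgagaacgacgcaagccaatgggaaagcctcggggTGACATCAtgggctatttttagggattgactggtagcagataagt

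Both strands of the windows from 250 bases before to 50 after the start were searched for 7 of the 10 genes with an entry. TGACGT was in the windows of Fos and Atf3, and in 7.51% of all 32851 windows. TGACATCA was in the window of Jun, and in 3.62% of all windows. The full cAMP response element TGACGTCA, which holds TGACGT, and the AP-1 element TGANTCA were in none of the 7 windows, and in 1.79% and 7.81% of all. TATAAA was in the windows of Fos and Junb and in 13.6% of all, the Egr1 element GCGNGGGCG in those of Fosb and Fosl2 and in 5.55% of all, and CCAAT in those of Jun, Junb and Atf3 and in 37.4% of all. The CArG box, the element of serum response factor, was in none of the 7 windows and in 1.63% of all. Sites farther than 250 bases before the start, and the genes without an entry, were not searched. The absence of a match therefore holds for these windows only. A match is a match of letters and was not measured as binding.

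Across the 6 libraries, which share 3 experiments and their scaling, the log2 CPM of Fos correlated with those of Fosb (Pearson r = 0.899), Junb (r = 0.903) and Jund (r = 0.890), and less with that of Jun (r = 0.330). The closest pair was Junb and Jund (r = 0.989). Fosl2 ran opposite to Egr1 (r = -0.884) and Ier2 (r = -0.867). Outside the 10 genes, the genes most like Fos over the 6 libraries were Tubb2a, St5, Plscr4, Ankrd54 and Dok4 (r from 0.960 to 0.971), and those most like Jun included Eif5a2, Psmd2, Cog5 and Gm973 (r from 0.986 to 0.994). These values describe 6 points each and were not tested.

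Levels between genes were compared as CPM per kb of the longest coding transcript. Egr1 headed the order in both groups, at 242 ± 80.6 CPM per kb in LRCs and 150 ± 55.1 in non-LRCs (SD, n = 3 each, as for all values that follow). In LRCs a tier of Fos (170 ± 91.3), Junb (161 ± 16.8), Ier2 (160 ± 15.7) and Jund (156 ± 19) came next, before Jun (81.7 ± 42.3) and Atf3 (58.0 ± 28.6). In non-LRCs Ier2 (148 ± 47.5) and Junb (117 ± 40.2) came next, and Jun (102 ± 61.9) stood before Fos (90.4 ± 78.1), Jund (86.2 ± 54.3) and Atf3 (71.2 ± 28). The other Fos genes closed the order in both groups, with Fosb at 27.2 ± 8.73 and 24.2 ± 9.93, Fosl1 at 25.6 ± 6.70 and 21.3 ± 2.71, and Fosl2 at 7.10 ± 1.41 and 10.4 ± 6.60 in LRCs and non-LRCs. Of the 9 neighbouring pairs in each order, 7 overlapped over the libraries. The pairs that did not overlap were Jund above Jun and Fosl1 above Fosl2 in LRCs, and Atf3 above Fosb and Fosl1 above Fosl2 in non-LRCs. The place of Jund depends on its length, since its transcript has 1668 bases in the GENCODE annotation used and its gene spans 2878 bases in RefSeq.

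**Figure D3:**
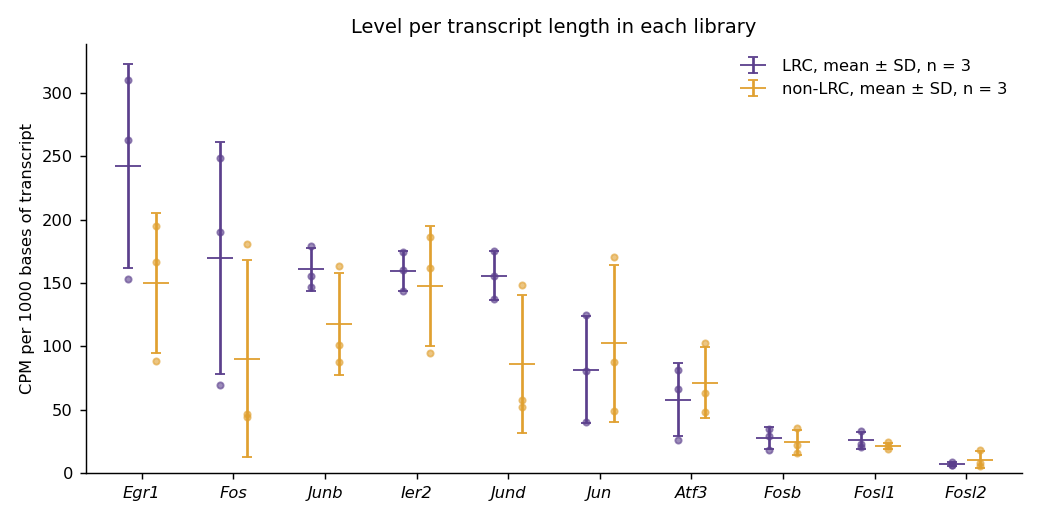
Level per transcript length of the 10 genes, in CPM per kb, with points for the libraries and bars for mean ± SD (n = 3 per group). Egr1 is at the top and Fosl2 at the bottom in both groups, and the bars of most neighbours overlap.

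The level of each gene relative to Jun in the same library does not depend on the scaling between libraries. This comparison was chosen after the values of Jun were seen and is given as a description. The log2 ratio of Jund to Jun, per length, was 0.77, 1.96 and 0.49 in LRCs and -0.60, 0.08 and -0.19 in non-LRCs, so every LRC library was above every non-LRC library. That of Egr1 to Jun was 1.70, 1.94 and 1.32 in LRCs and 0.93, 0.85 and 0.20 in non-LRCs, again with no overlap. These were 2 of the 9 genes set against Jun, where 3.16% of all genes had a ratio to Jun wholly above in LRCs. The ratio was higher in LRCs within all 3 experiments for 5 of the 9 genes (Fos, Fosl1, Junb, Jund and Egr1), where 33.9% of all genes were.

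**Figure D4:**
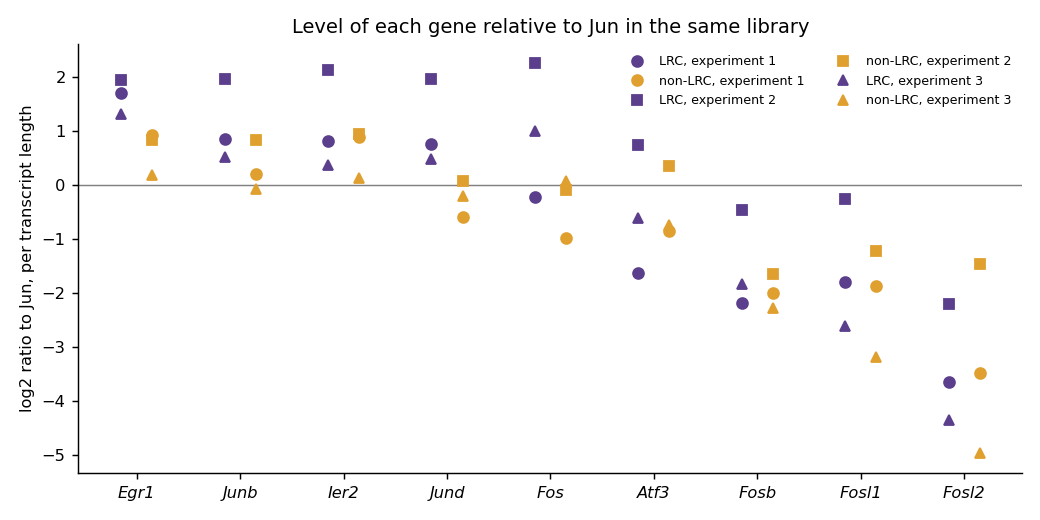
Log2 ratio of each of the other 9 genes to Jun in the same library, per transcript length, with purple for LRCs, orange for non-LRCs and a symbol per experiment. The purple and orange symbols of Egr1 and Jund do not overlap, and those of the other 7 genes do.

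The other genes of the pathway were taken from 6 lists, and each list is described by counts. Of 14 further bZIP partners of AP-1, 11 were tested, of which 7 had a higher and 4 a lower level in LRCs. None was a DEG by edgeR or DESeq2. At an unadjusted p below 0.05 the count was 3 (2 higher, 1 lower). Over all genes, 18.4% passed in either direction and 8.89% were higher. The median log2 fold change of these partners was 0.14. The most abundant were Atf4, an activator of the integrated stress response (mean level 477 ± 174 CPM in LRCs against 614 ± 214 CPM in the non-LRC libraries, fitted difference -0.36 ± 0.22 SE on the log2 scale), and the small Maf factor Mafk (264 ± 56.5 CPM against 195 ± 31.6 CPM, 0.43 ± 0.13 SE, adjusted p = 0.172 by edgeR).

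In the list of the 5 Egr family members and Nab corepressors other than Egr1, 3 were higher and 2 lower. None was a DEG by edgeR or DESeq2, and none had an unadjusted p below 0.05, against 18.4% of all genes. The corepressor Nab1, which binds Egr proteins, was the most abundant, with 129 ± 33.2 CPM in LRCs against 152 ± 19.7 CPM in non-LRCs and a fitted log2 fold change of -0.27 ± 0.15 (SE). Egr3 was low, at 5.06 ± 3.29 CPM and 1.91 ± 0.328 CPM.

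Of 43 other immediate early genes, 26 were higher and 17 lower, with a median log2 fold change of 0.07. At an unadjusted p below 0.05, the count was 6 higher and 5 lower. Over all genes, 18.4% passed in either direction and 8.89% were higher. Of the list, 1 gene was a DEG by edgeR, against 1.21% of all genes. This was Nr4a1, an orphan nuclear receptor that is induced by many stimuli. It was measured at 64.4, 55.0 and 116 CPM in LRCs and at 35.6, 23.3 and 45.5 CPM in non-LRCs, with no overlap. Nr4a1 rose by a log2 fold change of 1.15 ± 0.18 (SE) in LRCs, with an adjusted p of 0.0489 by the edgeR quasi-likelihood test. The widest fitted change of the list went the other way. Ptgs2 was lower in LRCs in all 3 experiments, with overlap of the groups. Its log2 fold change was -1.74 ± 0.32 (SE), with an adjusted p of 0.0692 by the same test. The most abundant genes of this list, Ctgf, Cyr61, Sgk1 and Errfi1, had log2 fold changes of 0.29, 0.31, -0.40 and 0.24, none past the test.

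Among 27 measured genes for upstream transcription factors and MAP kinases, 17 stood higher and 10 lower, none a DEG by edgeR or DESeq2. At an unadjusted p below 0.05 the count was 2, both higher. Over all genes, 18.4% passed in either direction and 8.89% were higher. Map2k3, a kinase above p38, was the most abundant, with 492 ± 24.0 CPM in LRCs against 446 ± 67.2 CPM in non-LRCs and a fitted log2 fold change of 0.15 ± 0.15 (SE). The list's median was 0.14.

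Of 24 genes known as AP-1 targets, 13 were higher and 11 lower with a median log2 fold change of 0.13. At an unadjusted p below 0.05, the count was 7 higher and 0 lower. Over all genes, 18.4% passed in either direction and 8.89% were higher. Of the targets, 1 was a DEG by edgeR, against 1.21% of all genes. Within experiments 10 of the targets were higher in LRCs in all 3 pairs, where 20.4% of all genes were. The number lower in all 3 was 2, where 26.1% of all genes were. Mmp3, the matrix metalloproteinase stromelysin 1, was measured at 299.9, 336 and 396 CPM in LRCs and at 120.3, 140 and 142 CPM in non-LRCs. All 3 LRC levels were above all non-LRC levels, and Mmp3 rose by a log2 fold change of 1.35 ± 0.14 (SE) in LRCs with an adjusted p of 0.0203 by the edgeR quasi-likelihood test. The matrix gene Fn1 had a log2 fold change of 1.14 ± 0.21 (SE) and an adjusted p of 0.0658. Spp1, the gene for osteopontin, was measured at 1079 ± 665 CPM and 1066 ± 634 CPM (log2 fold change -0.00 ± 0.14 SE). The inhibitor Timp1 was at 544 ± 467 CPM and 777 ± 401 CPM (log2 fold change -0.67 ± 0.30 SE, adjusted p = 0.303).

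Of 20 heat shock genes, which respond to protein damage and to handling of cells, 11 were higher and 9 lower with a median log2 fold change of 0.10. At an unadjusted p below 0.05, the count was 5 higher and 3 lower. Over all genes, 18.4% passed in either direction and 8.89% were higher. Of the heat shock genes, 1 was a DEG by edgeR, against 1.21% of all genes. Hspa1a, an inducible HSP70 gene, was measured at 10.7, 68.0 and 116 CPM in LRCs and at 2.59, 6.18 and 13.2 CPM in non-LRCs. It rose by a log2 fold change of 2.89 ± 0.33 (SE) in LRCs, with an adjusted p of 0.0275 by the edgeR quasi-likelihood test. Hspa1a shares nearly all of its sequence with Hspa1b (log2 fold change 2.90, adjusted p = 0.0620), so the split of reads between them is uncertain. The constitutive genes Hspa8 and Hsp90ab1 had log2 fold changes of 0.35 and 0.51, and Hsp90aa1 and Dnaja1 of -0.14 and 0.05, none past the test. Whether these changes arose before or during tissue digestion was not tested.

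**Figure D5:**
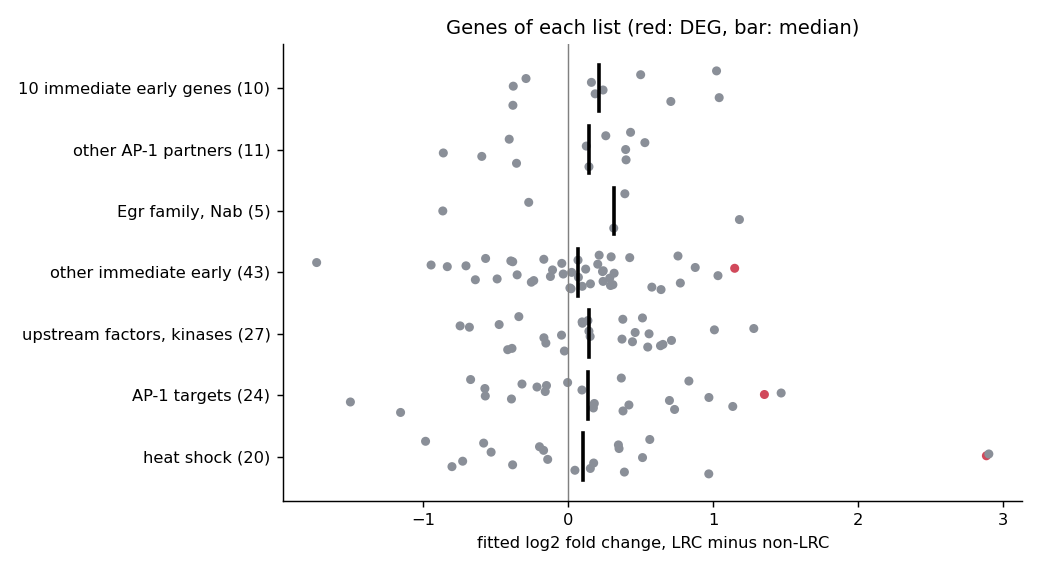
Fitted log2 fold change of each tested gene of the 10 immediate early genes and of the 6 lists, with red points for DEGs, black bars for the median of a list and the number of genes in brackets. Medians lie between 0.07 and 0.31, and the red points are Nr4a1, Mmp3 and Hspa1a.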

How the data were processed

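RNA was measured in 6 libraries (3 of LRCs and 3 of non-LRCs), grouped by their sample labels, with the number in the label as the experiment. Per the labels and the study's methods, the authors amplified cDNA with SMART-Seq, made Nextera XT libraries, aligned reads to mm10 with TopHat2 2.0.13 and Bowtie2 2.2.1, and counted reads per gene with HTSeq. The gene annotation and the strand setting are not given in the sources used here, so genes that overlap or nearly match another are uncertain. The authors deposited raw counts, used for all tests, the counts divided by a size factor per library as a normalized signal, and log2 values from rlog, both of which were only checked.

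The counts were fitted in edgeR 4.0.16 (R 4.3.3) after filterByExpr with at least 10 counts per library and 15 in total as its minimums. TMM scaling, terms for group and experiment, the quasi-likelihood test and a prior count of 0.125 were used, and p-values were adjusted over 13728 genes by Benjamini-Hochberg. The standard error (SE) of a fold change was derived from the test. It is the size of the log2 fold change divided by the square root of its F statistic. CPM values are TMM-scaled, with a prior count of 2 before log2. Experiment was a block as in the study's own paired analysis, which was run in DESeq2 and not in edgeR. DESeq2 with this block called 799 DEGs here, 427 of them higher in LRCs, the same numbers that the study reports. In each experiment, deviations of its LRC library from the group mean correlated with those of its non-LRC library (Pearson r of 0.197, 0.288 and 0.336 across genes). Between libraries of different experiments r lay between -0.274 and 0.128, the latter for LRCs of experiment 1 and non-LRCs of experiment 3. Deviations from a shared mean are not independent of each other. DESeq2 1.42.0, limma-voom 3.58.1 and the alternatives in the closing section were also run. These fits were first tried on simulated counts. Lengths and coordinates are from GENCODE vM21 (GRCm38), promoter windows from RefSeq. The text names the 10 genes, list members that were DEGs and others among the 4 most abundant of each list, and the 5 genes most like Fos and Jun, of which 1 is not reported here. Hspa1b, Ptgs2, Prg4, Cilp, the bone and the endothelial markers were named after their values were seen. The members and lists were chosen with earlier results of these data known.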

Additional observations from a re-analysis of the deposited data

How the results depend on the processing

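The 10 genes kept the direction of their log2 fold change under 12 alternatives, except that Fosb and Ier2 turned to -0.15 and -0.19 without experiment 2, the low ends of their ranges with an experiment left out, which reached 0.43 and 0.37. The number of the 10 genes called DEG was 0 with no replicate block (smallest adjusted p 0.558), 2 by DESeq2, 2 by the edgeR likelihood ratio test, both times Fos and Jund, and 0 to 2 when an experiment was left out. Over all genes, DEGs numbered 166 in the paired fit, 1 with no replicate block, 799 by DESeq2, 434 with at least 10 counts in every library, 621 by limma-voom, 613 by the likelihood ratio test, and 35 to 555 when an experiment was left out. Of the 10 genes, 4 differed between experiments with at least 10 counts in every library, among 932 of all genes. Without experiment 1, 2 or 3, 1 did (Jun, Fos and Jun), among 98, 3 and 725 of all genes. The count was 0 with DESeq2 size factors and with thinned libraries, the other settings run for it. Among the other immediate early genes, AP-1 targets and heat shock genes 1 each was a DEG with the block and 0 with no replicate block, while DESeq2 called 2 other immediate early genes (Nr4a1 higher, Ptgs2 lower) and 2 heat shock genes (Hspa1a and Hspa1b). The cause of these differences was not tested. Leaving out an experiment leaves 2 libraries per group. With 3 pools per group, differences of the size of those of Fos, Jund and Egr1 fell on either side of the threshold depending on the test.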
